A study of Mus musculus with 16 samples.

Results

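The extracellular matrix genes measured in tumor-associated macrophages (TAMs) of mice with ovarian cancer were the collagens, the laminins and 11 matrix glycoproteins and proteoglycans. Members were the protein-coding genes whose symbols are those of collagen alpha chains (Col followed by type and chain number) or laminin chains (Lama, Lamb or Lamc with a number), plus Fn1, Sparc, Fbn1, Eln, Nid1, Nid2, Hspg2, Dcn, Lum, Bgn and Thbs1. There were 66 members among the 55604 genes listed, made up of 44 collagen chains, 11 laminin chains and the 11 named genes. The rule itself uses names alone. RNA came from macrophages of the peritoneal cavity of female C57BL/6 mice, injected with ID8 cells, a mouse ovarian cancer line, into the peritoneal cavity at 6 to 8 weeks of age, and the cells were isolated 6 to 7 weeks later. Tim-4+ TAMs were taken with beads against Tim-4, a phosphatidylserine receptor found on resident macrophages, and Tim-4- TAMs were then taken from the remaining cells with beads against F4/80. All mice carried tumors, and the genotype given in the labels is the sorted phenotype, not an allele. There were 4 numbered pairs (793, 784, 783 and 779), each with 1 Tim-4+ and 1 Tim-4- library, so 8 libraries. The sources used here do not state whether a pair was 1 mouse or a pool, so p-values measure the spread between these pairs.

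Collagens are triple helices of 3 alpha chains. Fibrillar collagens give tissue its tensile strength, whereas collagen IV, laminins, nidogens and perlecan assemble into basement membranes, the thin sheets under epithelium, mesothelium and endothelium. Laminins are trimers of 1 alpha, 1 beta and 1 gamma chain. Fibronectin and thrombospondin 1 are soluble or fibrillar adhesive glycoproteins that macrophages are known to secrete, and the small leucine-rich proteoglycans decorin and biglycan bind collagen fibrils. The peritoneal cavity is lined by mesothelial cells, which rest on a basement membrane.

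Each library held 53527928 to 69594245 read counts assigned to genes. Levels are CPM, read counts scaled to the size of the library, after TMM scaling, which aligns the libraries on the bulk of their genes. Unless stated otherwise, 4 values for a subset are in the pair order 793, 784, 783 and 779. The transcript of the sorting marker, Timd4, stood at 1161, 1744, 524 and 1166 CPM in Tim-4+ TAMs and at 84.98, 11.1, 22.3 and 1.97 CPM in Tim-4- TAMs, as the labels state. Of 8 macrophage markers, Adgre1, Cd68 and Itgam were higher in Tim-4+ TAMs and the other 5 were not called, and their summed level was 48044 to 60491 CPM in Tim-4+ TAMs against 22960 to 36533 CPM in Tim-4- TAMs. The part of that difference in the higher matrix genes was not tested.

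Most of the abundant collagen IV and laminin chains, perlecan, elastin, decorin and biglycan were lower in Tim-4+ than in Tim-4- TAMs, while the 2 adhesive glycoproteins that dominated the matrix RNA, Fn1 and Thbs1, were higher. Of the 66 members, 45 reached 10 counts in 4 or more libraries and were tested. In edgeR's quasi-likelihood test blocked by pair, with Benjamini-Hochberg adjustment across the 16861 genes tested, 14 members were lower and 4 were higher, where a call needed 2-fold or more and an adjusted p below 0.05. The 14 made up 31.1% of the tested members, against 5.79% of all tested genes called lower. The 4 made up 8.89%, against 3.80% of all tested genes called higher, which is a difference of few genes and is not read as a result about the list. The median log2 fold change was -0.49 over the 45 members, with 26 below 0 and 19 above, and -0.0012 over all tested genes. The remaining 27 tested members were not called.

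The subsets did not overlap, over all 8 libraries, for 9 lower members and 1 higher member, of the 45 tested, where 5.92% (lower) and 6.84% (higher) of all tested genes did not overlap. The 9 were Col4a1, Col4a2, Lama5, Lamb1, Lama4, Hspg2, Sparc, Col14a1 and Col12a1, of which Col12a1 was not called, and the 1 was Fn1. All 4 higher members were higher in each of the 4 pairs, and 13 of the 14 lower members were lower in each. The calls were made on these same pairs, which favors such agreement. The exception was Col4a5, whose libraries of pair 783 differed 1.02-fold, while those of Bgn differed 1.005-fold and counted as lower. In the plot of fold changes by role, collagen IV holds 3 of the 14 lower members, and laminin alpha chains, laminin beta chains and the small leucine-rich proteoglycans hold 2 each.

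**Figure D1:**
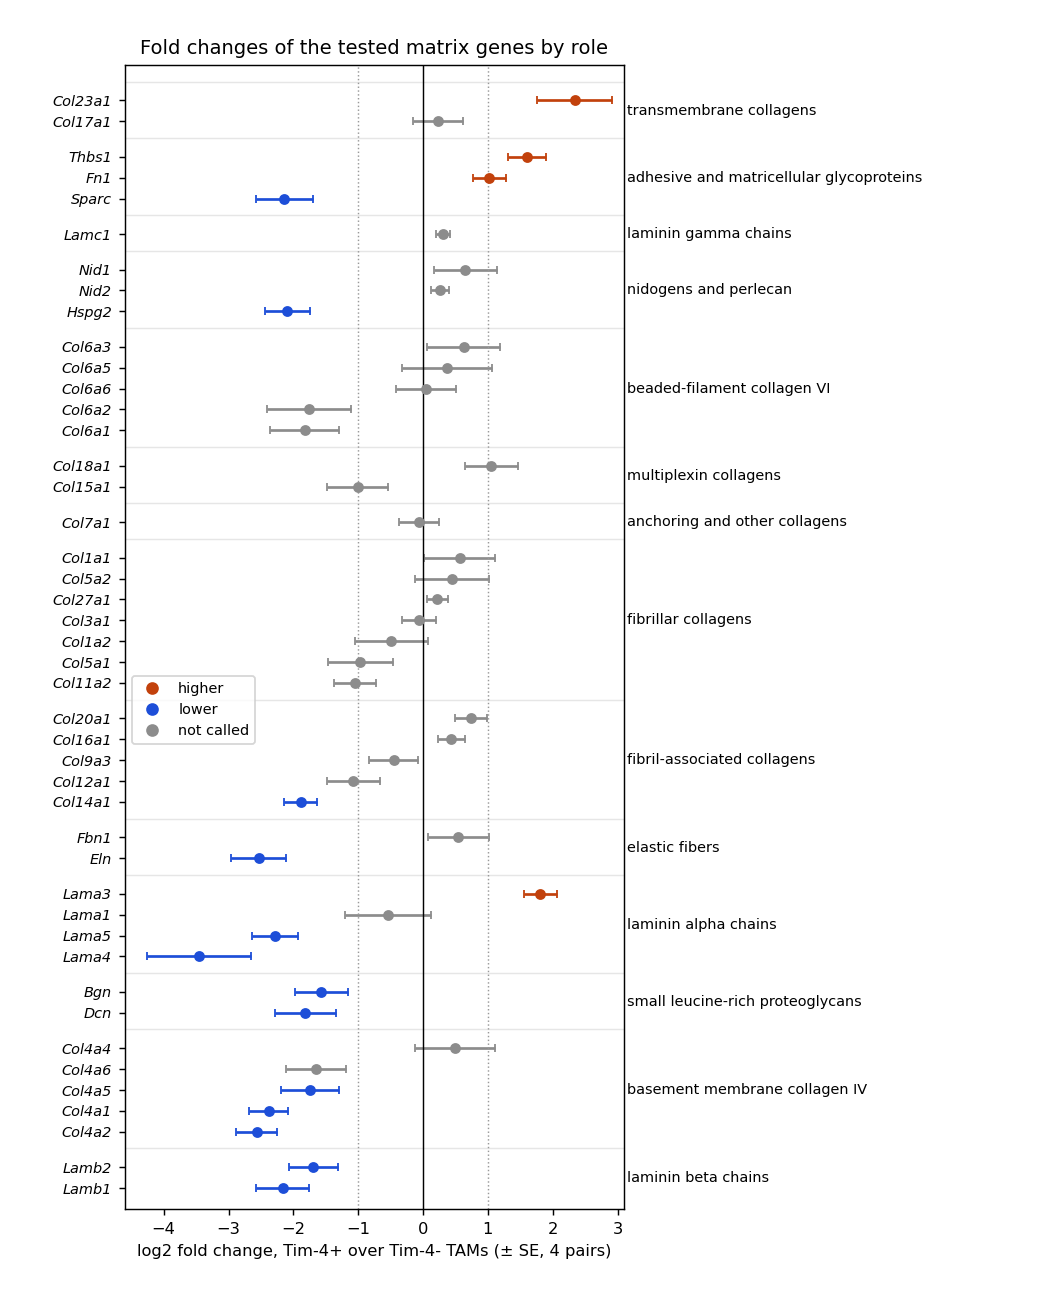
Log2 fold change between Tim-4+ and Tim-4- TAMs (horizontal axis, with SE from the edgeR fit over 4 pairs) of 44 tested matrix genes, grouped by role, with dotted lines at 2-fold. Of the genes shown, 13 were called lower (blue), 4 higher (red) and 27 not called (gray), and none of the 7 fibrillar collagens was called.

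The counts of calls depended on the filter for low counts and on which pairs entered, for all genes as well as for the members. With every gene of at least 1 count tested, 2 of 62 members were lower (3.23%, Col14a1 among them), against 2.62% of all genes tested, so 12 of the 14 calls were lost and the members' share was close to that of all genes. Without pair 784, 1 member was lower (Col14a1) and 0 were higher, and the calls over all genes fell to 63 lower and 76 higher. At an unadjusted p under 0.05 in the same edgeR fit, 6 members were higher and 16 lower. All genes were not counted at that looser threshold, so these 2 numbers cannot be set against the calls over all genes. Without pair 793, 5 were lower, among them Lama5, Col14a1, Col4a1 and Col4a2, and 2 were higher (Lama3 and Thbs1). Over all genes, 433 were then lower and 536 higher. Without pair 779, 4 were lower, among them Col14a1, Col4a1 and Col4a2, and 1 was higher (Lama3). Over all genes, 274 were then lower and 270 higher. Without pair 783, 17 were lower and 5 higher, and over all genes 1533 were lower and 798 higher. With no block for the pair, 1 member was lower (Lama5) and 0 were higher, and over all genes 80 were lower and 127 higher. At an unadjusted p under 0.05 in that edgeR fit, 5 members were higher and 19 lower, again without a count over all genes.

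Fibronectin, encoded by Fn1, was the most abundant member per length. Fn1 stood at 40783, 28603, 30939 and 33710 CPM in Tim-4+ TAMs and at 25769, 14433, 17921 and 10627 CPM in Tim-4- TAMs. Every Tim-4+ library was above every Tim-4- library. Fn1 rose by 1.02 ± 0.25 on the log2 scale (SE, n = 4 pairs, adjusted p = 0.0306), a 2.03-fold difference, and took 2.48 to 3.63% of all counts in Tim-4+ TAMs against 1.24 to 2.71% in Tim-4- TAMs. The gene lies on chromosome 1 of GRCm38 (71585520 to 71653200, minus strand). Scaled to total counts, the log2 fold change of Fn1 was 0.67, still with an adjusted p under 0.05 but under 2-fold. That scaling moved the median of all tested genes to -0.36.

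Thrombospondin 1, encoded by Thbs1, an adhesive glycoprotein that binds CD36 and CD47, came next. Thbs1 stood at 15723, 12031, 2933 and 15148 CPM in Tim-4+ TAMs and at 8069, 2378, 1456 and 3500 CPM in Tim-4- TAMs. It was higher in the Tim-4+ library of each pair, but the subsets overlapped through the low Tim-4+ library of pair 783. Both libraries of pair 783 were the lowest of their subset. Thbs1 rose by 1.61 ± 0.29 on the log2 scale (SE, adjusted p = 0.0137), 3.04-fold, whereas DESeq2 gave an adjusted p of 0.118. Beside Fn1 within a library, Thbs1 had 0.0948 and 0.0812 counts per Fn1 count in the Tim-4+ and Tim-4- libraries of pair 783, and 0.165 to 0.449 in the other 6 libraries. The low ratio was thus a feature of pair 783 in both subsets. Together the 66 members took 3.30 to 5.07% of counts in Tim-4+ TAMs against 2.11 to 3.68% in Tim-4- TAMs, and apart from Fn1 and Thbs1 they took 0.0476 to 0.0879% and 0.125 to 0.451%.

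SPARC, a calcium-binding matricellular protein that binds collagen, went the other way from the other 2 adhesive and matricellular members. Sparc stood at 31.6, 58.2, 79.5 and 54.4 CPM in Tim-4+ TAMs and at 116, 421, 118 and 492 CPM in Tim-4- TAMs. The subsets did not overlap, and the Tim-4- libraries of pairs 784 and 779 were the highest. Sparc fell by 2.14 on the log2 scale (SE 0.44, adjusted p = 0.0243), a 4.41-fold difference. By length, in CPM per kilobase of exon, the means in Tim-4+ TAMs were 2868 for Fn1, 1887 for Thbs1 and 14.8 for Sparc, and in Tim-4- TAMs they were 1471, 634 and 75.7.

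**Figure D2:**
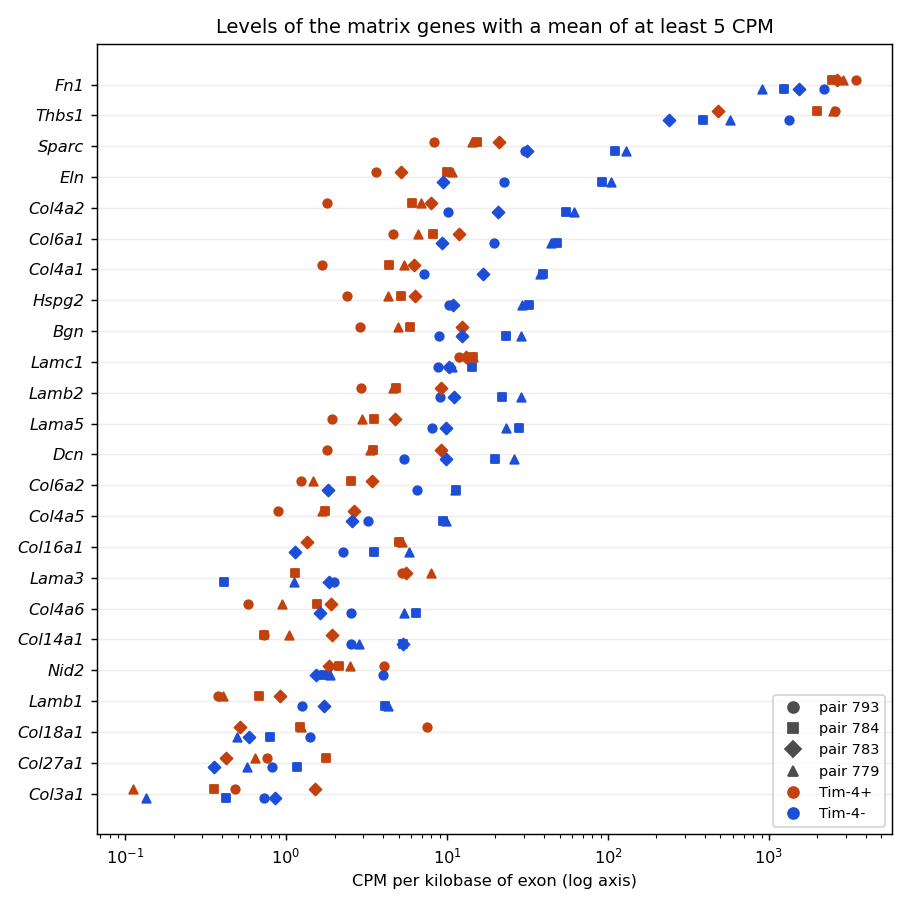
CPM per kilobase of exon (horizontal log axis) of the 24 matrix genes whose mean was 5 CPM or more, 1 point per library, with Tim-4+ in red, Tim-4- in blue and a symbol shape for each pair. Fn1 and Thbs1 lie above all other members in every library, and the 3rd gene by level, Sparc, averaged 14.8 per kilobase in Tim-4+ and 75.7 in Tim-4- TAMs.

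Collagen IV chains, the network collagen of basement membranes, were lower in Tim-4+ TAMs for 3 of the 5 tested. Col4a1 stood at 12.5, 32.7, 46.7 and 40.1 CPM in Tim-4+ TAMs and at 53.8, 293, 124 and 283 CPM in Tim-4- TAMs. Col4a2 stood at 11.8, 39.9, 52.3 and 45.5 CPM in Tim-4+ TAMs and at 66.8, 360, 138 and 404 CPM in Tim-4- TAMs. Neither gene overlapped between the subsets, and the Tim-4+ library of pair 793 was the lowest for both. Col4a1 fell by 2.38 (SE 0.30, adjusted p = 0.00855) and Col4a2 fell by 2.57 (SE 0.32, adjusted p = 0.00848) on the log2 scale. These chains join as 2 of alpha 1 with 1 of alpha 2. Per kilobase, the level of Col4a1 was 0.621 to 0.936 times that of Col4a2 across the 8 libraries. Col4a1 (chromosome 8, 11198423 to 11312826, minus strand) and Col4a2 (11312805 to 11449287, plus strand) lie head to head and their annotations overlap by 22 bases.

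Col4a5 and Col4a6 form a second head-to-head pair, on chromosome X with 1308 bases between them. Col4a5 stood at 6.01, 11.8, 17.6 and 11.3 CPM in Tim-4+ TAMs and at 21.8, 63.0, 17.3 and 66.6 CPM in Tim-4- TAMs. It was level between the libraries of pair 783 and lower in Tim-4+ in the other pairs, and it fell by 1.74 (SE 0.45, adjusted p = 0.0436). Col4a6, with 9.96 ± 4.77 CPM against 31.7 ± 18.0 CPM (SD, n = 4), was not called by edgeR (log2 fold change -1.65, SE 0.47, adjusted p = 0.0568), but was called lower by DESeq2 (adjusted p = 0.00035), with total counts, with lane 2 alone and without pair 783 (adjusted p = 1.8e-05). Its level was likewise close to equal in pair 783, at 15.2 and 12.9 CPM. Col4a4, with a log2 fold change of 0.50, was not called, and Col4a3 was too low to be tested.

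The laminin chains did not move together. Among alpha chains, Lama5, which is widespread in basement membranes, stood at 21.8, 40.1, 54.5 and 33.5 CPM in Tim-4+ TAMs and at 91.8, 320, 112 and 264 CPM in Tim-4- TAMs, without overlap. Lama5 fell by 2.28 on the log2 scale (SE 0.35, adjusted p = 0.0122). Lama4, the alpha chain known from vascular basement membranes, was scarce, at 0, 0.660, 0.749 and 0.0416 CPM in Tim-4+ TAMs against 0.884, 7.0, 1.84 and 2.07 CPM in Tim-4- TAMs. A count of 0 at this depth allows up to 0.0630 CPM in the Tim-4+ library of pair 793, for counting error only. Lama4 fell by 3.46 (SE 0.80, adjusted p = 0.0318), a value that rests on few counts in Tim-4+ TAMs.

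Lama3, the alpha chain that epithelia use in anchoring complexes, was the laminin that rose. It stood at 56.3, 12.2, 59.8 and 85.2 CPM in Tim-4+ TAMs and at 21.4, 4.42, 19.96 and 12.1 CPM in Tim-4- TAMs. It was higher in Tim-4+ in each pair, and the subsets overlapped only through the low Tim-4+ library of pair 784. Lama3 rose by 1.81 ± 0.25 on the log2 scale (SE, adjusted p = 0.00917), 3.51-fold. Lamb3, a beta chain with which Lama3 is known to assemble, had 0 to 18 counts per library and was not tested.

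Both tested beta chains were lower. Lamb1 stood at 3.72, 6.70, 9.14 and 4.04 CPM in Tim-4+ TAMs and at 12.4, 41.0, 17.1 and 42.7 CPM in Tim-4- TAMs, without overlap, and fell by 2.16 (SE 0.41, adjusted p = 0.0198). Lamb2 stood at 17.9, 29.4, 55.8 and 28.2 CPM in Tim-4+ TAMs and at 55.0, 134, 66.8 and 175 CPM in Tim-4- TAMs. It was lower in each pair with overlap through pair 783, and fell by 1.69 (SE 0.38, adjusted p = 0.0311). Lamc1, the gamma chain shared by most laminins, stood at 112 ± 10.46 CPM in Tim-4+ TAMs against 91.4 ± 19.2 CPM in Tim-4- TAMs (SD, n = 4). Its log2 fold change was 0.31 (SE 0.11, adjusted p = 0.0983), and -0.05 when scaled to total counts.

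Perlecan, encoded by Hspg2, the heparan sulfate proteoglycan of basement membranes, was lower. Hspg2 stood at 34.1, 73.7, 90.3 and 61.5 CPM in Tim-4+ TAMs and at 147, 464, 155 and 421 CPM in Tim-4- TAMs. The subsets did not overlap, and Hspg2 fell by 2.09 (SE 0.35, adjusted p = 0.0140). The nidogens, which link laminin to collagen IV, were not called. Nid2 stood at 13.6 ± 5.05 CPM in Tim-4+ TAMs against 11.8 ± 5.94 CPM in Tim-4- TAMs (log2 fold change 0.26, SE 0.14, adjusted p = 0.239, and -0.10 when scaled to total counts), and Nid1 averaged 0.383 CPM over the 8 libraries.

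Elastin, encoded by Eln, the rubber-like core of elastic fibers, had the highest mean of the lower members. Eln stood at 29.2, 80.5, 41.8 and 87.1 CPM in Tim-4+ TAMs and at 184, 739, 76.5 and 842 CPM in Tim-4- TAMs. The Tim-4- libraries of pairs 784 and 779 were far above the rest, and the subsets overlapped only through the low Tim-4- library of pair 783. Eln fell by 2.54 on the log2 scale (SE 0.43, adjusted p = 0.0147), a 5.80-fold difference. Fibrillin 1, encoded by Fbn1, the scaffold on which elastin is laid down, was low in both subsets, averaged 0.383 CPM and was not called.

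The small leucine-rich proteoglycans were lower. Biglycan, encoded by Bgn, stood at 17.5, 35.8, 75.4 and 30.2 CPM in Tim-4+ TAMs and at 54.7, 142, 75.8 and 176 CPM in Tim-4- TAMs. Decorin, encoded by Dcn, stood at 10.49, 20.2, 53.6 and 19.4 CPM in Tim-4+ TAMs and at 31.4, 115, 57.5 and 152 CPM in Tim-4- TAMs. Both were almost equal between the libraries of pair 783 and lower in Tim-4+ TAMs of the other pairs. Bgn fell by 1.57 (SE 0.40, adjusted p = 0.0442) and Dcn fell by 1.81 (SE 0.47, adjusted p = 0.0459), the highest adjusted p among the called members being that of Dcn. Lumican, encoded by Lum, was at or under 0.183 CPM in every library and was not tested.

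Of the fibrillar collagens, none of the 7 tested was called by edgeR, with 1 at an unadjusted p under 0.05 (Col11a2, which DESeq2 called lower). Col3a1 stood at 6.06 ± 6.09 CPM in Tim-4+ TAMs against 5.24 ± 3.16 CPM in Tim-4- TAMs, with a log2 fold change of -0.06 (SE 0.27, adjusted p = 0.903). Col27a1 stood at 11.7 ± 7.82 and 9.51 ± 4.52 CPM, with a log2 fold change of 0.22 (SE 0.17, adjusted p = 0.396, and -0.14 when scaled to total counts). The chains of collagen I, the main collagen of fibroblasts, did not exceed 1.97 CPM (Col1a1) and 3.05 CPM (Col1a2) in any library. The scarcity of collagen I RNA was therefore common to both subsets.

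The fibril-associated collagen Col14a1 was lower. It stood at 5.09, 5.12, 13.6 and 7.28 CPM in Tim-4+ TAMs and at 17.8, 37.3, 37.6 and 19.9 CPM in Tim-4- TAMs. The subsets did not overlap, and Col14a1 fell by 1.89 (SE 0.25, adjusted p = 0.00804), the lowest adjusted p of a member. Col16a1, of the same role, stood at 28.1 ± 12.7 and 21.5 ± 13.5 CPM and was not called (log2 fold change 0.44, SE 0.20, adjusted p = 0.177). Neither of the 2 abundant collagen VI chains, Col6a1 and Col6a2, was called, although their levels were 34.2 ± 13.4 against 133 ± 82.3 CPM and 18.0 ± 8.35 against 64.1 ± 37.6 CPM. In pair 783 both were higher in Tim-4+ TAMs, at 52.0 and 40.9 CPM for Col6a1 and at 28.4 and 15.2 CPM for Col6a2. Their log2 fold changes were -1.83 (SE 0.53, adjusted p = 0.0624) and -1.75 (SE 0.65, adjusted p = 0.113), and without pair 783 both were called lower. DESeq2 called Col6a1 alone of the collagen VI chains.

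Col23a1, a transmembrane collagen, rose. It stood at 6.01, 9.86, 1.24 and 4.14 CPM in Tim-4+ TAMs and at 1.96, 1.22, 0.752 and 0.215 CPM in Tim-4- TAMs. It was higher in Tim-4+ in each pair, and its log2 fold change was 2.34 ± 0.58 (SE, adjusted p = 0.0383). Col18a1, whose product carries endostatin, stood at 52.7, 8.54, 3.66 and 8.74 CPM in Tim-4+ TAMs and at 9.95, 5.55, 4.16 and 3.47 CPM in Tim-4- TAMs. The Tim-4+ library of pair 793 stood apart. Col18a1 was not called (log2 fold change 1.05, SE 0.41, adjusted p = 0.130) and was at 0.60 without pair 793, while without pair 783 it was called higher. Among the 21 members too low to be tested, 4 had 0 counts in all 8 libraries (Col6a4, Col9a1, Col11a1 and Col25a1). Col13a1, a transmembrane collagen singled out after its values were seen, had 23, 76, 8 and 0 counts in Tim-4+ TAMs and 0 counts in each Tim-4- library. It was called higher when every gene of at least 1 count was tested. It passed that filter through its Tim-4+ libraries alone, so the call adds nothing to these counts. The other 20 untested members did not exceed 0.402 CPM in any library.

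**Figure D3:**
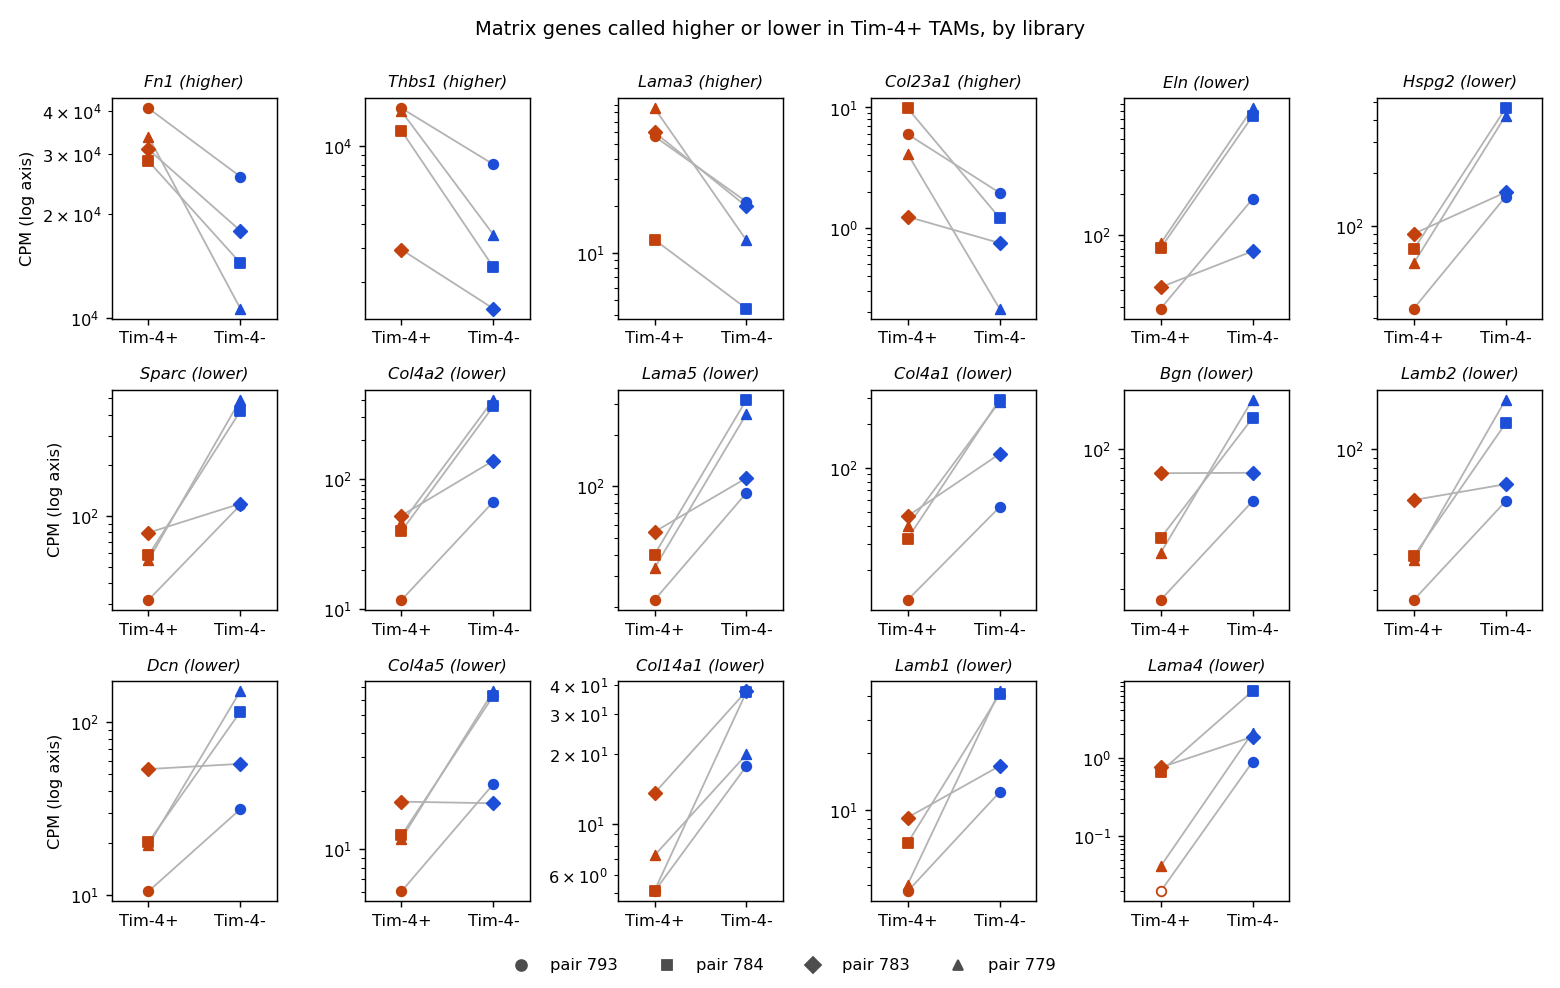
CPM (vertical log axis, scaled per panel) of 17 called matrix genes in the Tim-4+ (red) and Tim-4- (blue) libraries, with a line joining each pair and a symbol shape for each pair, and an open symbol at the bottom of the Lama4 panel for a count of 0. The lines slope down in all 4 pairs for the 4 higher genes and up in all 4 pairs for 12 of the 13 lower genes shown. The genes were called on these same pairs, which favors such agreement. Pair 783 (diamonds) is the flattest in 12 of the 13.

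The remaining 18 tested members had means under 5 CPM and were not called, with log2 fold changes from -1.07 to 0.74 and adjusted p from 0.0626 to 0.958. No tested member reached 10 counts in libraries of 1 subset only.

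Mesothelial markers, and epithelial and tumor markers, moved with the lower members. Of 12 mesothelial markers, 11 were lower in Tim-4+ TAMs, among them Upk1b (9.47 ± 6.05 against 101 ± 99.4 CPM, log2 fold change -2.99, adjusted p = 0.00875) and Msln, the gene of mesothelin (14.7 ± 8.98 against 104 ± 83.6 CPM, log2 fold change -2.69, adjusted p = 0.00792). The 12 summed to 111, 205, 380 and 225 CPM in Tim-4+ TAMs against 455, 1389, 767 and 2076 CPM in Tim-4- TAMs, and none was at 0 throughout. The 14 lower members summed to 202, 435, 592 and 423 CPM and to 854, 3138, 1004 and 3344 CPM. Because the 14 were called lower in these same libraries, the direction of their sum was given by that choice. The subsets did not overlap in either sum, and pair 783 had the smallest difference in both. From Tim-4- to Tim-4+ TAMs, the lower members differed 4.23-, 7.21-, 1.69- and 7.90-fold and the mesothelial markers 4.11-, 6.76-, 2.02- and 9.22-fold.

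Within a library, the ratio of the summed lower members to the summed mesothelial markers was 1.82, 2.12, 1.56 and 1.88 in Tim-4+ TAMs against 1.88, 2.26, 1.31 and 1.61 in Tim-4- TAMs, so the subsets overlapped in that ratio. Eln had a ratio of 0.1099 and 0.0998 to the mesothelial markers in the Tim-4+ and Tim-4- libraries of pair 783, and 0.263 to 0.532 in the other 6 libraries. Elastin RNA was therefore low beside the mesothelial markers in both libraries of pair 783. Of the 10 epithelial and tumor markers, 6 were tested and 5 were lower, and they summed to 28.6 to 122 CPM in Tim-4+ TAMs against 102 to 504 CPM in Tim-4- TAMs, with Esrp1 at 0 throughout. Most of that level was in the keratins Krt18, Krt8 and Krt7, with means of 81.3, 72.0 and 20.8 CPM over the 8 libraries. Epcam and Elf3 averaged 3.58 and 1.81 CPM. Another keratin, Krt19, was counted with the mesothelial markers. The part of mesothelial, epithelial or tumor RNA in the lower members was not tested, and in bulk libraries fewer cells of a type and less RNA per cell cannot be told apart.

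**Figure D4:**
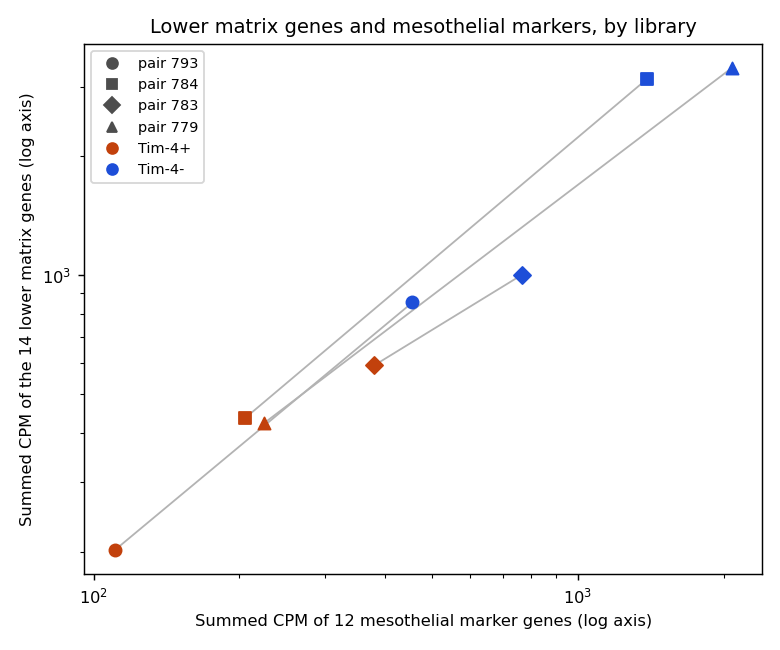
Summed CPM of the 14 lower matrix genes (vertical log axis) against the summed CPM of 12 mesothelial markers (horizontal log axis), 1 point per library, with Tim-4+ in red, Tim-4- in blue and a line joining each pair. The 8 points lie near 1 line, with ratios from 1.31 to 2.26, and each Tim-4- library lies above and to the right of its Tim-4+ partner. The vertical order follows from the choice of the 14 genes as lower in these same libraries.

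Markers of other cells that make matrix summed to less than the mesothelial markers in every library. The 12 fibroblast markers summed to 39.5 to 85.1 CPM in Tim-4+ TAMs against 17.6 to 57.6 CPM in Tim-4- TAMs. Of the 6 tested, Pi16 (55.8 ± 28.1 against 6.85 ± 6.09 CPM, log2 fold change 3.11, adjusted p = 0.00957) and Meox1 rose and 4 were not called, and Tcf21 was at 0 throughout. On average Pi16 made up most of the Tim-4+ sum, so that sum says little about the other fibroblast markers. The 10 endothelial markers summed to 6.56 to 12.5 and 9.97 to 32.8 CPM, with Egfl7 higher and Robo4 lower of the 5 tested and Cldn5 at 0. The 8 smooth muscle and pericyte markers summed to 2.18 to 19.6 and 5.62 to 38.9 CPM, and the 5 tested were not called (median log2 fold change -0.49). Platelet, lymphocyte and granulocyte markers summed to no more than 18.0 CPM in any library, with Cd79b lower among the lymphocyte markers. Dendritic cell markers summed to no more than 33.2 CPM, with Cd209a higher and 7 not called.

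The 18 called members were next read for the bases before their start sites, and a RefSeq promoter (GRCm38.p6) was found for 45 of the 66 members, 9 of the 14 lower ones and 1 of the 4 higher ones, Col23a1. A GC box, the letters GGGCGG or their reverse complement, was present in the 250 bases before the start for 6 of the 9 lower members, in 57.1% of the 49 promoter entries of all members and in 32.7% of all 32851 promoters in the table. CCAAT was present for 4 of the 9, in 30.6% of the members' entries and in 33.8% of all promoters, while TATAAA, present in 12.4% of all promoters, was in none of these 9 windows. Shown are the bases of 4 lower members and of Col23a1 that precede any annotated exon, 5′ to 3′ on the gene's own strand, with GC boxes in capitals, since Lama5 and Hspg2 carried 4 and 5 of them, Bgn 3, Lamb1 2 and Col23a1 1. A match of letters describes the window and is not a measured binding site.
Lama5, chr2:180225860-180226109, minus strand: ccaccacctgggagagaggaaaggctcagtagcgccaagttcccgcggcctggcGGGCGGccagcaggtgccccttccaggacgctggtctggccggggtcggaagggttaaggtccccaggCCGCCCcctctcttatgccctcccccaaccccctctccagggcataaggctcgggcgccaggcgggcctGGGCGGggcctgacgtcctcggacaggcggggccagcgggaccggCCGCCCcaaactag
Hspg2, chr4:137468553-137468768, plus strand: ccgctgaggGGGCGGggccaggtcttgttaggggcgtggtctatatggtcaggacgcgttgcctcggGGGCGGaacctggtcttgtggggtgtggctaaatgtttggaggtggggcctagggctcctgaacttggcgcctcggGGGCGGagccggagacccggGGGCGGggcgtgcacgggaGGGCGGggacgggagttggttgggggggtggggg
Lamb1, chr12:31265043-31265233, plus strand: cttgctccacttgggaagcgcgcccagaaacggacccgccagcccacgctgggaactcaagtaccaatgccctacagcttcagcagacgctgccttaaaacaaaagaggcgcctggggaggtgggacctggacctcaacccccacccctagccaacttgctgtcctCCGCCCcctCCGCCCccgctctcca
Bgn, chrX:73483351-73483600, plus strand: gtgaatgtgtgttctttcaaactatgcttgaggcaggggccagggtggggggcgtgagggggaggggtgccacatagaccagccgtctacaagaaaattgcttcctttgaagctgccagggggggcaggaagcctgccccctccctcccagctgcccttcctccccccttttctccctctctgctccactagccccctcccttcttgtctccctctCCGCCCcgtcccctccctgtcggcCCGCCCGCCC
Col23a1, chr11:51289670-51289919, plus strand: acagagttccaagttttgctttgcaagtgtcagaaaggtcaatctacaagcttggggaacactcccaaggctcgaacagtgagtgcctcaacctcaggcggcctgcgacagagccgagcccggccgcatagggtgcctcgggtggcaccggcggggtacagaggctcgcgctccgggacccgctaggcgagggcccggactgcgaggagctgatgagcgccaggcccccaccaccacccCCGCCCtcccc

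Genes that build, anchor or remove matrix were counted for comparison. Of all tested genes, 3.80% were called higher and 5.79% lower, and their median log2 fold change was -0.0012. The counts in the lists that follow differ from those shares by few genes and are not read as results about the lists. Of 28 tested genes of collagen synthesis and cross-linking, 4 were higher (Plod3, Crtap, Pcolce2 and Adamts2) and 6 lower, with a median log2 fold change of -0.46. The lower ones included the lysyl oxidase Loxl2 (6.02 ± 3.32 against 35.5 ± 21.4 CPM, log2 fold change -2.50, adjusted p = 0.0135), the procollagen N-propeptidase Adamts14 (1.30 ± 0.922 against 12.99 ± 12.7 CPM, -2.92, adjusted p = 0.0125) and P3h4 (6.63 ± 4.06 against 27.7 ± 15.02 CPM, -2.08, adjusted p = 0.0175). Of 29 tested receptors for collagen, laminin and fibronectin, Itga6 and Itga7 were higher and 6 were lower, with a median of -0.30. These included Itga3, an integrin chain for laminin (23.6 ± 9.82 against 181 ± 132 CPM, log2 fold change -2.72, adjusted p = 0.00722), Itgb8 (2.02 ± 2.08 against 11.2 ± 5.12 CPM, -2.72, adjusted p = 0.0283) and the collagen receptor Ddr1 (21.1 ± 10.2 against 86.0 ± 48.1 CPM, -2.01, adjusted p = 0.0175).

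Genes of collagen uptake were lower for 3 of the 11 tested, with a median of -0.22, and 8 were not called. Mrc1, the macrophage mannose receptor, which takes up collagen fragments, stood at 169 ± 124 against 313 ± 143 CPM (log2 fold change -1.09, adjusted p = 0.0115). Stab1, a scavenger receptor for SPARC, stood at 972 ± 669 against 1882 ± 820 CPM (-1.08, adjusted p = 0.00949), and the membrane collagenase gene Mmp14 at 72.9 ± 81.3 against 154 ± 156 CPM (-1.32, adjusted p = 0.00875). The spread over the 4 libraries of a subset was wide for all 3, and the calls rest on the differences within pairs. Of 30 other tested matrix glycoproteins and proteoglycans, 3 were higher (Emilin1, Ecm1 and Ltbp1) and 6 lower, with a median of -0.51 and with Vtn, Mfap4 and Acan at 0 throughout. Ltbp1, which tethers latent TGF-beta to matrix, stood at 763 ± 288 against 161 ± 114 CPM (log2 fold change 2.35, adjusted p = 0.0127). Npnt stood at 2.23 ± 0.834 against 12.9 ± 7.94 CPM (-2.40, adjusted p = 0.00650) and Tinagl1 at 2.06 ± 0.666 against 14.7 ± 15.5 CPM (-2.33, adjusted p = 0.0128).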

How the data were processed

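RNA of 8 libraries, 4 of Tim-4+ and 4 of Tim-4- TAMs, was depleted of ribosomal RNA, made into stranded libraries and sequenced in 2 lanes each (paired-end). The authors deposited a file per lane of raw read counts, whole numbers per gene with no normalization. The submitters' notes name TopHat2 2.0.13 and GRCm38 (mm10), and the counter and its strand setting are not given in the sources used here, so overlapping genes and members of antisense pairs are uncertain. In 15 of the 16 lanes with a summary, ambiguous reads were 3.42 to 4.30% and reads in no gene 4.59 to 6.83%, and these rows were left out. The 16th lane (Tim-4-, pair 793) lists symbols and was joined by row order, with 96.8% of comparable symbols and all 66 members matching. Symbols, positions and exon lengths are from GENCODE M21, in which 98.6% of identifiers were found.

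Lanes were summed into 1 library. Genes that reached 10 counts in 4 or more libraries were tested with edgeR 4.0.16 in R 4.3.3 (TMM, robust quasi-likelihood fit, pair as block, Benjamini-Hochberg over 16861 genes). SE is the log2 fold change divided by the root of the F statistic. Same-numbered libraries deviated together (correlation of deviations from the subset means 0.277 to 0.498 in the 4 pairs), so the numbers were taken as pairs. The fit was tested on simulated data with known changes. DESeq2 1.42.0 and other scalings, filters, lanes and left-out pairs were alternatives. Counting intervals and limits cover counting error only.

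The members, marker lists and gene lists were chosen with earlier results of these data known. Named were all called members and those with a mean of at least 5 CPM, values per library being given for called members of at least 1 CPM, and of each pathway list up to 3 called genes with the largest change and at least 5 CPM. Of each marker list, genes are examples. The values of 1 called member are not reported here.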

Additional observations from a re-analysis of the deposited data

Results flagged for a closer look

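In groups of 4 libraries, 3 values of the 27 named members lay farther from the other 3 libraries than Dixon's test at the 95% level allows, of 54 groups examined, where chance alone flags about 1 group in 20. Col18a1 was at 52.7 CPM in Tim-4+ TAMs of pair 793, and at 3.66 to 8.74 CPM in the other 3 Tim-4+ libraries. Nid2 was at 20.6 CPM in Tim-4- TAMs of pair 793, and its Tim-4+ partner was the highest of its subset as well, at 20.9 CPM. Col16a1 was at 9.09 CPM in Tim-4+ TAMs of pair 783, and its Tim-4- partner was the lowest of its subset, at 7.69 CPM. None of the 3 genes was called between the subsets by edgeR's quasi-likelihood test, with all 3 at adjusted p of 0.130 to 0.239, while DESeq2 called Col18a1.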

How the results depend on the processing

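The numbers of members called lower (14) and higher (4) stayed within 1.5 times under DESeq2 size factors, total counts (18 lower), a filter of 50 counts, DESeq2, lane 2 alone and without the symbol-listed lane. With every gene of at least 1 count tested, 2 were lower, and with no replicate block 1 was lower and 0 higher. Leaving out 1 pair each gave 1 to 17 lower and 0 to 5 higher. Col3a1 turned from -0.06 to 0.21 with no replicate block and to between -0.38 and 0.13 with 1 pair left out, above 0 in 3 of the 4. Scaled to total counts, Nid2 was at -0.10, Lamc1 at -0.052 and Col27a1 at -0.14, where the median of all genes was -0.36. No called member changed direction under any alternative run. The causes were not tested. Of the 21 members left out by the filter on low counts, 17 were tested when every gene of at least 1 count was, and the other 4 had 0 counts throughout. Of the 17, Col13a1 was called higher. It had counts in Tim-4+ libraries only and passed the filter through them, so that call is not separate support.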
